A study of Homo sapiens with 12 samples.

Results

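The BCL2 family genes measured here are 10 of the 15074 genes in the series' tables. They were matched by gene symbol to a list of family members drawn up with earlier results of these data known, by a rule that itself uses no measured value, and all 10 were found: BCL2L11, BCL2L1, BCL2L2, MCL1, BID, BIK, BMF, BAK1, BAD and BCL2L12. RNA came from HCT116, a human colorectal carcinoma line, in 4 groups of 3 libraries. A pair of groups are AGO2 knockout cells (label AGO2_KO) that express FH-AGO2, either the 5xA mutant (FH-AGO2_5xA, called FH-5xA) or the wild type (FH-AGO2_WT, called FH-WT). What FH stands for is not stated in the labels. The third is the AGO2 knockout itself, called knockout, and the fourth is the parental line. Wells were seeded with 500000 cells and harvested after 48 h, with no drug or other agent named, and total RNA was depleted of ribosomal RNA. The 3 samples of a group are triplicate wells of 1 line, so the errors measure the spread between wells and not between independently made lines. The values come from the authors' deposited comparison tables. They hold no values per library, so the depth is unknown and group overlap cannot be shown.

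BCL2 family proteins decide whether the outer mitochondrial membrane stays intact. Guardians such as BCL2, BCL-XL and MCL1 hold the pore-forming effectors BAX and BAK in check. The BH3-only proteins relay stress by binding the guardians or by activating the effectors directly. Once the membrane opens, cytochrome c leaves the mitochondrion, joins APAF1 and starts the caspases. AGO2 is the Argonaute protein that loads microRNAs and brings them to target mRNAs, which are then translated less and degraded. BCL2L11, which encodes the BH3-only protein BIM, is a textbook target of the miR-17 family, whose members come from the miR-17-92 cluster and its relatives. 5xA names a form of AGO2 in which a cluster of phosphorylation sites is replaced by alanine.

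The miR-17 family and the sites for it are shown because the list was built around BCL2L11 as a target. All 6 members of the family in the RefSeq microRNA table (GRCh38.p14) share 1 seed, bases 2 to 8, given in capitals in these mature sequences. miR-19b-3p and miR-92a-3p are made from the same cluster and have other seeds.
miR-17-5p: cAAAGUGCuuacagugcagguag
miR-20a-5p: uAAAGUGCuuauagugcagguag
miR-93-5p: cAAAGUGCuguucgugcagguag
miR-106b-5p: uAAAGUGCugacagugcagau
miR-19b-3p: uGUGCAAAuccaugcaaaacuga
miR-92a-3p: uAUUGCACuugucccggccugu

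The longest annotated 3′ untranslated region (3′ UTR) of each gene was searched. Which UTR these cells use, and their microRNA levels, are not in the values used here. BCL2L11 has the longest such UTR of the 10 genes, 4480 bases in GENCODE 29, longer than that of 89.3% of the measured protein-coding genes, whose median is 1417 bases. It held 14 seed matches for 8 of the 13 microRNAs searched. For miR-17-5p it had an 8mer (GCACTTTA, pairing with the seed and followed by A) at base 2265 and a 7mer-A1 (CACTTTA) at base 4390, counted from the first base after the stop codon. A further 7mer-m8 form (GCACTTT) was also searched and not present on its own. Near the end of the UTR, matches for miR-221-3p, miR-19b-3p, miR-17-5p and miR-92a-3p followed each other from base 4318 to base 4407. These sites are printed as mRNA-sense DNA on the plus strand of chromosome 2 (GRCh38), with the match in capitals.
miR-17-5p 8mer, chr2:111166230-111166237: tcctgactagaGCACTTTActctgtttcct
miR-221-3p 8mer, chr2:111168283-111168290: ggacccagcgtATGTAGCAtttgtattgca
miR-19b-3p 7mer-m8, chr2:111168323-111168329: cttacttgtgtTTTGCACtgatgaatttt
miR-17-5p 7mer-A1, chr2:111168355-111168361: agggtaattgcCACTTTActtgtgcaata
miR-92a-3p 8mer, chr2:111168365-111168372: ccactttacttGTGCAATActgctgtaaat
miR-24-3p 8mer, chr2:111164673-111164680: tgcagtggaaaCTGAGCCAgctaacttaaa
miR-181a-5p 8mer, chr2:111164439-111164446: gaagtttgttgTGAATGTAaaggagggagc

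A match is common: 32.5% of 11743 measured genes with an annotated 3′ UTR held one for miR-17-5p, 20.8% for miR-92a-3p and 22.5% for miR-19b-3p. Among 1145 genes whose UTR length was within 20% of that of BCL2L11, the share with a miR-17-5p match was 64.3%. In the same genes it was 46.2% for miR-19b-3p, 45.5% for miR-92a-3p, 39% for miR-221-3p, 66.3% for miR-24-3p and 58.7% for miR-181a-5p. The other seeds searched were GAGGUAG (let-7a-5p, 18.6% of genes), AGCACCA (miR-29a-3p, 20.4%), AGCAGCA (miR-15a-5p, 29.4%), GGCAGUG (miR-34a-5p, 24.2%) and CCCUGAG (miR-125b-5p, 25.2%). They also included ACAUUCA (miR-181a-5p, 28.1%), GCUACAU (miR-221-3p, 17.4%), GGCUCAG (miR-24-3p, 34.1%), AAUACUG (miR-200c-3p, 26.2%) and AGCUUAU (miR-21-5p, 14.8%). Searches ran on the mRNA strand, for the reverse complement of the seed with or without a following A, or of bases 2 to 7 followed by A. Matches of different microRNAs can overlap, as those of miR-181a-5p and miR-221-3p do in BMF.

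The other members differ widely in these features. MCL1 (UTR 2824 bases) also held a miR-17-5p 8mer, besides 8mers for miR-92a-3p, miR-29a-3p and miR-125b-5p. BAK1 (1450 bases) held 3 matches for miR-125b-5p and BCL2L2 (2794 bases) held 4 for miR-15a-5p and 2 for miR-17-5p. BCL2L1 (1497 bases) held a single match, an 8mer for let-7a-5p. BMF (3897 bases) held 12 matches, including an 8mer for miR-29a-3p. BID (1442 bases) held 3 matches, all 7mer-A1, for miR-17-5p, miR-92a-3p and miR-21-5p. BIK (407 bases), BAD (379 bases) and BCL2L12 (226 bases) have short UTRs with 3, 1 and 2 matches. These MCL1 (chromosome 1), BAK1 (chromosome 6) and BCL2L1 (chromosome 20) sites, all on the minus strand, are shown for comparison with BCL2L11.
MCL1 miR-17-5p 8mer, chr1:150575142-150575149: aggacctaaaaGCACTTTAtgtagttttta
MCL1 miR-29a-3p 8mer, chr1:150576039-150576046: tagtctaaccaTGGTGCTAttattaggctt
BAK1 miR-125b-5p 8mer, chr6:33573166-33573173: gcagttggactCTCAGGGAttctgggcttg
BCL2L1 let-7a-5p 8mer, chr20:31664997-31665004: cagggtcttccCTACCTCAggcaggaaggg

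**Figure D1:**
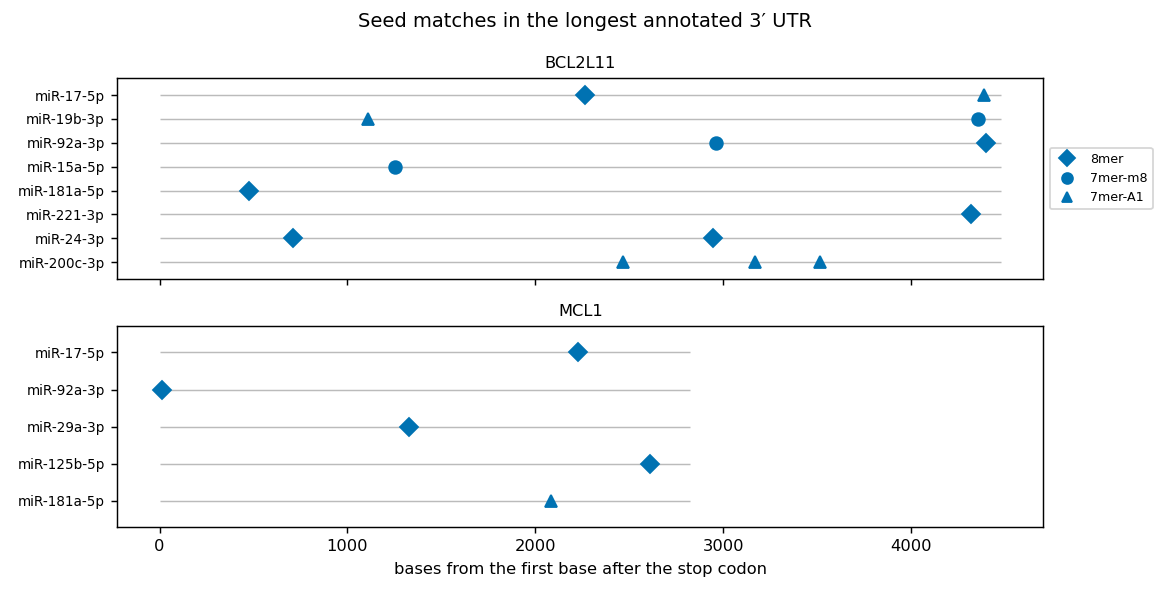
Positions of microRNA seed matches along the longest annotated 3′ UTR of BCL2L11 (top) and MCL1 (bottom); the x axis is in bases from the first base after the stop codon, and symbols give the match type. BCL2L11 has 14 matches over 4480 bases, 4 of them between base 4318 and base 4407, and both genes have a miR-17-5p 8mer.

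The labels and the line were checked first. In the authors' deposited tables AGO2 was at 0.73 ± 0.07 in FH-5xA and 0.75 ± 0.07 in FH-WT against knockout, and at -0.35 ± 0.07 in knockout against parental cells (log2 fold change ± SE). Epithelial markers were abundant in sum, with 7 of 8 measured and a summed fitted level of 2216 CPM (read counts scaled to library size) in FH-5xA, 2060 in FH-WT, 2342 in knockout and 2912 in parental cells. Most of the sum came from KRT8, KRT18, KRT19 and EPCAM, while CDX2 ran from 9.86 to 11 CPM. CDH1 was at 21.3 CPM in FH-5xA, 15.8 in FH-WT and 25 in knockout, against 49.1 in parental cells. CLDN7 was at 48.1, 43.1 and 38.4 CPM in the same order, against 84.1 in parental cells. Among markers of other cell types, 0 of 4 blood and 0 of 4 endothelial genes were in the tables. Of 5 fibroblast markers only COL1A1 was measured, at fitted levels of 1.83 to 4.99 CPM over the groups, and of 4 neural markers only SNAP25, at 0.809 to 1.92 CPM. The knockout-derived lines also share a shift of chromosome 7, where 226 genes up to 50 Mb had a median of -0.90 and 454 genes beyond 70 Mb a median of 0.49 in knockout against parental cells (authors' deposited table). None of the 10 genes lies on chromosome 7. AGO2 RNA largely remained in the knockout, at a fitted 161 CPM against 205 CPM in parental cells, so this value is no check of the loss of the protein. With 1 knockout line, the edit of AGO2 and anything else that line acquired cannot be told apart.

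Levels of the family differed widely, with MCL1 highest and BMF lowest. Fitted group levels were rebuilt from the mean expression and fold changes of the authors' deposited tables, taking the 4 groups as equally weighted, and divided by exon length to compare genes. MCL1, the short-lived guardian (ENSG00000143384, chromosome 1, 150574551 to 150579738), was highest at 61.4 CPM per kb in FH-5xA, 58.9 in FH-WT, 62.2 in knockout and 62.6 in parental cells. BCL2L1, the gene of BCL-XL (ENSG00000171552, chromosome 20, 31664452 to 31723989), followed at 33.3 CPM per kb in FH-5xA, 30.9 in FH-WT, 36.8 in knockout and 33.1 in parental cells. Next, by mean level, came BID at 13.4 and BIK at 12.8 CPM per kb, then BAD at 9.79, BCL2L12 at 5.99, BCL2L2 at 5.91, BCL2L11 at 4.17 and BAK1 at 3.75. BMF was lowest at 0.215 CPM per kb, with a mean of 1.17 CPM, and only 4.35% of all genes had a lower mean expression. Summed per kb, the 4 anti-apoptotic members were at 106 in FH-5xA, 101 in FH-WT, 109 in knockout and 111 in parental cells. The 5 BH3-only members summed to 44.1 in FH-5xA, 38.1 in FH-WT, 41.9 in knockout and 37.4 in parental cells. BIK alone was at 15.6 CPM per kb in FH-5xA and 8.33 in parental cells. These sums carry no error and were not tested. They cover the 10 members only, so other measured family genes, such as BCL2, are left out and no balance of the whole family can be read from them.

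**Figure D2:**
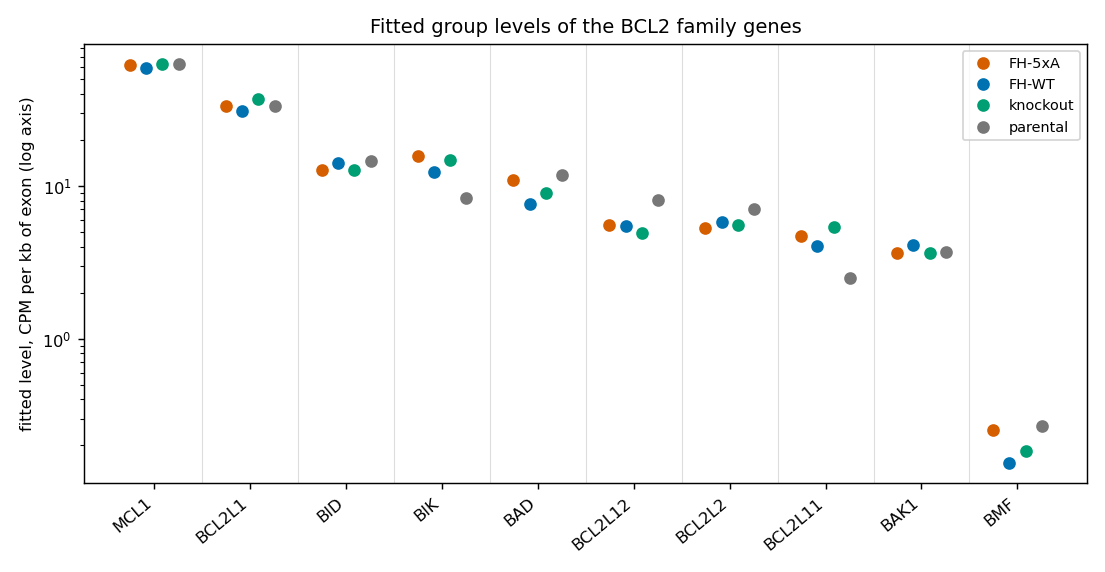
Fitted level of each BCL2 family gene in FH-5xA, FH-WT, knockout and parental cells, in CPM per kb of exon on a log axis, genes ordered by mean level. MCL1 lies near 60 in all 4 groups, while BCL2L11 is at 4.72, 4.05 and 5.41 in FH-5xA, FH-WT and knockout cells and at 2.51 in parental cells.

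In the knockout, BIM and BIK transcripts stood higher and those of BCL2L2 and BCL2L12 lower, while the most abundant guardian, MCL1, was nearly level. Of the 10 members, 2 were called higher and 2 lower at a false discovery rate (FDR) under 0.05 in the authors' deposited table, where 23.2% of all genes were called higher and 21.2% lower. That is 4 of 10 called, against 44.4% of all genes. Their median log2 fold change was -0.12, against -0.01 over all genes. In bulk RNA, fewer cells that express a gene and less RNA per cell cannot be told apart.

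Among the BH3-only genes, BCL2L11 (ENSG00000153094, chromosome 2, 111119378 to 111168447) had a fitted level of 36.0 CPM in knockout and 16.7 CPM in parental cells. In the authors' deposited table this is a rise of 1.10 ± 0.11 on the log2 scale, 2.15-fold (edgeR likelihood ratio test, FDR 2.73e-22). BIK (ENSG00000100290, chromosome 22, 43110748 to 43129712), whose product sits mainly on the endoplasmic reticulum, was at 14.1 CPM in knockout and 7.94 CPM in parental cells. It rose by 0.83 ± 0.22 (FDR 0.000586) in the authors' deposited table. The SE of BIK is wide, larger than that of 91.8% of 927 genes of like expression. The other BH3-only genes were not called. BMF, a sensor tied to the cytoskeleton, stood at -0.54 ± 0.32 (FDR 0.155), BID, which caspase-8 cleaves to join the death receptor and mitochondrial pathways, at -0.21 ± 0.12 (FDR 0.148) and BAD, which survival kinases inactivate, at -0.38 ± 0.33 (FDR 0.373) in the authors' deposited table. For BAD the 95% interval ran from -1.03 to 0.28, which includes no change as well as changes of either sign. Its SE exceeded that of 99.6% of 1066 genes of like expression.

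Among the members listed as anti-apoptotic, BCL2L12 (ENSG00000126453, chromosome 19, 49665142 to 49673916), an atypical member reported to restrain caspases and p53, was at 10.8 CPM in knockout and 17.9 CPM in parental cells. Its fall was -0.73 ± 0.15 (FDR 1.45e-05) in the authors' deposited table. BCL2L2, the gene of BCL-W (ENSG00000129473, chromosome 14, 23298790 to 23311759), was at 23.1 CPM in knockout and 29.6 CPM in parental cells, and fell by 0.36 ± 0.10 on the log2 scale (FDR 0.00211, authors' deposited table). BCL2L1 was at 0.16 ± 0.07 and missed the threshold (FDR 0.0585) in the authors' deposited table. Centred on the median of all genes, its value of 0.17 passed at 0.0375. With the score referred to an F distribution with 8 residual degrees of freedom, BCL2L1 did not pass, at 0.126. MCL1 stood at -0.01 ± 0.08 in the authors' deposited table, with a 95% interval of -0.17 to 0.15. The effector BAK1 (ENSG00000030110, chromosome 6, 33572547 to 33580293) was at -0.02 ± 0.13, with an interval of -0.26 to 0.23 (authors' deposited table).

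Some of these genes share exonic sequence with a neighbour, and the sources used here do not say whether counting used strand. BCL2L1 has the largest overlap, 1424 bases or 43% of its exons, with ABALON on the opposite strand, which is not in the tables, so reads of the 2 genes may not be told apart. BCL2L12 shares 734 exonic bases with IRF3, 33.1% of its exons, on the opposite strand, and IRF3 was at 0.01 ± 0.17 in knockout against parental cells in the authors' deposited table. BAD shares 404 bases with GPR137 on the opposite strand, which was at 0.02 ± 0.16 in the same deposited table of the authors. BCL2L11 shares 727 bases with MIR4435-2HG on the opposite strand, at 0.09 ± 0.11 there (authors' deposited table). BCL2L2 shares 813 bases, 19.4% of its exons, with the readthrough gene BCL2L2-PABPN1 on the same strand, so reads of the 2 genes cannot be fully told apart.

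**Figure D3:**
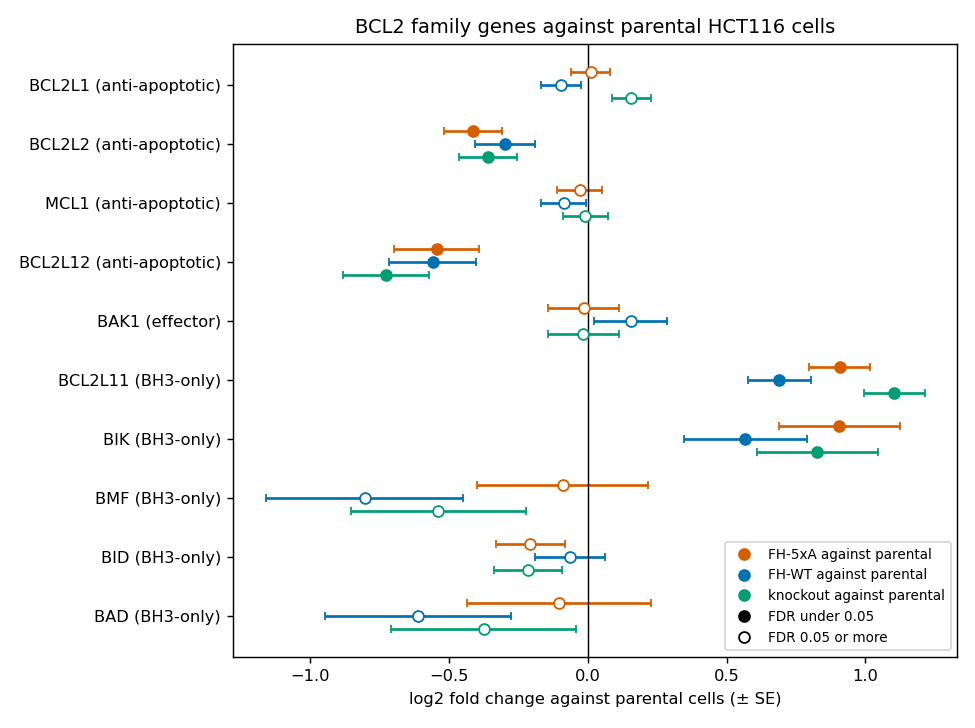
Log2 fold change of each BCL2 family gene against parental cells, with SE, for FH-5xA, FH-WT and knockout; filled points have an FDR under 0.05. In all 3 lines BCL2L11 and BIK are called higher and BCL2L2 and BCL2L12 lower.

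Both reconstituted lines were also compared with parental cells, and the same 4 genes were called in each. In FH-5xA against parental, 2 of 10 members were higher and 2 lower, where 22.9% and 20.9% of all genes were called higher and lower (43.8% in all) in the authors' deposited table. In FH-WT against parental, again 2 were higher and 2 lower, against backgrounds of 18.3% and 16.1% (34.4% in all) in the authors' deposited table. These comparisons share the parental libraries with each other and with the knockout comparison, so their likeness is no independent support. BCL2L11 had fitted levels of 31.4 CPM in FH-5xA and 27.0 CPM in FH-WT, against 16.7 CPM in parental cells. Its log2 fold change was 0.91 ± 0.11 in FH-5xA (FDR 5.02e-15) and 0.69 ± 0.11 in FH-WT (FDR 2.31e-08) in the authors' deposited tables. BIK stood at 0.91 ± 0.22 in FH-5xA (FDR 0.00016) and at 0.57 ± 0.22 in FH-WT (FDR 0.0329) in the authors' deposited tables. BCL2L12 was at -0.54 ± 0.15 in FH-5xA and -0.56 ± 0.16 in FH-WT (FDR 0.00155 and 0.0021, authors' deposited tables). BCL2L2 was at -0.41 ± 0.11 in FH-5xA and -0.30 ± 0.11 in FH-WT (FDR 0.000402 and 0.0202, authors' deposited tables). The other 6 members were not called in either line. BMF stood at -0.09 ± 0.31 in FH-5xA and -0.80 ± 0.35 in FH-WT (FDR 0.842 and 0.0639), and BAD at -0.10 ± 0.33 in FH-5xA and -0.61 ± 0.34 in FH-WT (FDR 0.833 and 0.152), in the authors' deposited tables. BID was at -0.21 ± 0.12 in FH-5xA and -0.06 ± 0.12 in FH-WT (authors' deposited tables). Among the guardians BCL2L1 was at 0.01 ± 0.07 in FH-5xA and -0.10 ± 0.07 in FH-WT, and MCL1 at -0.03 ± 0.08 in FH-5xA and -0.09 ± 0.08 in FH-WT (authors' deposited tables). The effector BAK1 was at -0.01 ± 0.13 in FH-5xA and 0.16 ± 0.13 in FH-WT (authors' deposited tables). With the score referred to an F distribution with 8 residual degrees of freedom, BIK and BCL2L2 in FH-WT no longer passed, at 0.107 and 0.0866.

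BCL2L11 and BCL2L1 were the members called lower when wild-type AGO2 was returned to the knockout. In FH-WT against knockout, 0 of 10 members were called higher and 2 lower, where 4.21% of all genes were called higher and 5.85% lower (10.1% in all) in the authors' deposited table. BCL2L11 had 27.0 CPM in FH-WT and 36.0 CPM in knockout, and fell by 0.42 ± 0.11 on the log2 scale, to 0.750 of the knockout level (FDR 0.00449, authors' deposited table). BCL2L1 had 103 CPM in FH-WT and 122 CPM in knockout, and fell by 0.25 ± 0.07 (FDR 0.0104) in the authors' deposited table. Both calls were lost when the score was referred to an F distribution with 8 residual degrees of freedom, at 0.155 for BCL2L11 and 0.176 for BCL2L1. The other 8 members ran from -0.27 for BMF to 0.17 for BAK1 in the authors' deposited table, none of them called. Between these lay BAD at -0.24 ± 0.34, MCL1 at -0.08 ± 0.08, BCL2L2 at 0.06 ± 0.11 and BID at 0.15 ± 0.12 (authors' deposited table). BIK, raised in the knockout, was at -0.26 ± 0.22 (FDR 0.505, authors' deposited table), and its 95% interval of -0.69 to 0.17 includes both no change and a fall nearly as large as its rise.

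With 5xA AGO2, no member was called against the knockout. The count was 0 of 10 higher and 0 lower in the authors' deposited table (edgeR likelihood ratio test), where 5.04% of all genes were called higher and 6.24% lower (11.3% in all). At an unadjusted p under 0.05 there was 1 member, BCL2L1 at -0.15 ± 0.07 (FDR 0.177, authors' deposited table). BCL2L11 had 31.4 CPM in FH-5xA and 36.0 CPM in knockout, at -0.20 ± 0.11 (FDR 0.235, authors' deposited table), with a 95% interval of -0.40 to 0.01. BIK stood at 0.08 ± 0.21, BMF at 0.45 ± 0.32 and BAD at 0.27 ± 0.33 in the authors' deposited table. BID at 0.01 ± 0.12, BAK1 at 0.002 ± 0.13, MCL1 at -0.02 ± 0.08 and BCL2L2 at -0.05 ± 0.11 lay near 0, and the signs for BID and BAK1 turn with centring on the median of all genes (authors' deposited table). BCL2L12, lower in the knockout, was at 0.18 ± 0.16 in FH-5xA and 0.17 ± 0.16 in FH-WT against knockout (authors' deposited tables). The 2 rescue comparisons are set against 1 group of knockout libraries, which also serves in knockout against parental cells, so their values are given side by side only.

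Whether the 2 forms of AGO2 differ is answered only by the difference itself, FH-5xA minus FH-WT, which was derived because no table compares them. Of the 10 members, 0 were called, against 4.11% of all genes, 1.98% higher and 2.13% lower in FH-5xA (chi-square test on the derived difference, Benjamini-Hochberg adjusted over 15072 genes). At an unadjusted p under 0.05 there were 2, BCL2L11 and BMF. BCL2L11 was higher in FH-5xA by 0.22 ± 0.11 (adjusted p = 0.254; 95% interval 0.002 to 0.434). BMF differed by 0.71 ± 0.36 (adjusted p = 0.253), at fitted levels of 1.37 CPM in FH-5xA and 0.839 CPM in FH-WT. BAD differed by 0.51 ± 0.34 and BIK by 0.34 ± 0.22, and BID went the other way at -0.14 ± 0.13, none of them called. A value above 0 was found for 4 of the 5 BH3-only genes, with intervals that for BIK and BAD include 0. It was also found for 3 of the 4 anti-apoptotic members and for 8 of 10 measured other BCL2 family genes. The sign is therefore not particular to the BH3-only genes, and the median over all genes was 0.009. MCL1 at 0.06 ± 0.08, BCL2L1 at 0.11 ± 0.07, BCL2L12 at 0.01 ± 0.16, BCL2L2 at -0.12 ± 0.11 and BAK1 at -0.17 ± 0.13 were not called either. The widest interval among these 5 was that of BCL2L12, from -0.30 to 0.33.

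**Figure D4:**
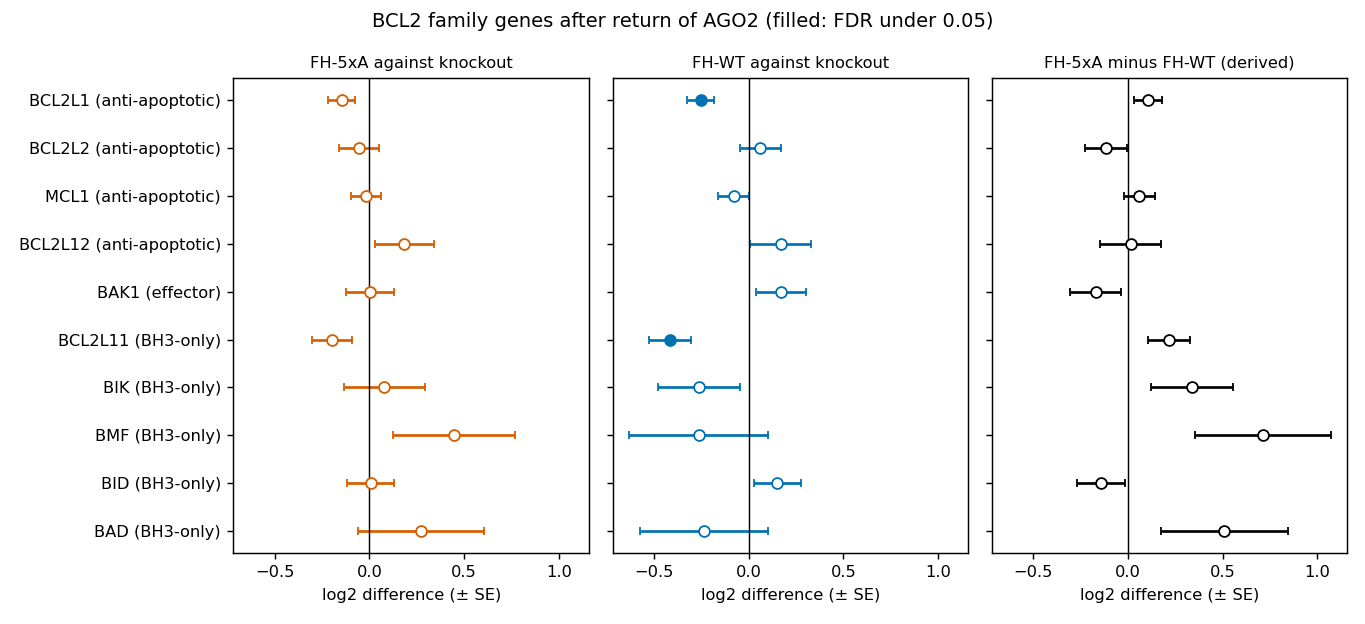
Log2 difference with SE for each BCL2 family gene in FH-5xA against knockout, FH-WT against knockout and the derived FH-5xA minus FH-WT; filled points have an FDR under 0.05. BCL2L11 and BCL2L1 are called lower in FH-WT, no member is called in FH-5xA, and no member is called in the difference.

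Ordered by fitted level, BCL2L11 ran from knockout through FH-5xA and FH-WT to parental cells. Of these steps, that between FH-WT and parental was called, while knockout and FH-5xA (FDR 0.235) and FH-5xA and FH-WT (adjusted p = 0.254) did not differ beyond the threshold. For BIK the order was FH-5xA, knockout, FH-WT and parental, with the last step alone called. For BCL2L12 and BCL2L2 parental cells were highest and the step below them was called, with none called among the 3 other lines. For BCL2L1 no neighbouring groups were called apart, only knockout and FH-WT at the ends of its order. Nor were neighbours called apart for MCL1, BAK1, BMF, BID or BAD.

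Many other genes of the apoptosis machinery were called in the knockout. Of 52 other genes in 5 lists, 49 were measured. In knockout cells 24 of them were higher than in parental cells and 8 lower in the authors' deposited table, with a median of 0.19 against -0.01 over all genes and called shares of 23.2% and 21.2%. Of 10 measured other BCL2 family genes, 5 were higher and 2 lower. The guardian BCL2 was at -1.09 ± 0.12 (FDR 5.49e-17), and PMAIP1, the gene of the BH3-only protein NOXA and a p53 target, was at 0.92 ± 0.12 (FDR 4.44e-13) in the authors' deposited table. BNIP3L, a mitophagy receptor, was at 0.46 ± 0.08 and the effector BAX at 0.32 ± 0.09 (authors' deposited table). HRK, the gene of a further BH3-only protein, was lower, at -0.61 ± 0.12 (FDR 1.46e-06, authors' deposited table). BBC3, the gene of PUMA, was at 0.13 ± 0.21 and not called in the authors' deposited table. BCL2A1, BCL2L10 and BCL2L14 were not in the tables.

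Downstream of the mitochondrion, 4 of 9 apoptosome and caspase genes were higher in knockout than in parental cells and 1 was lower (authors' deposited table). The counts of this and the next lists stand against 23.2% of all genes called higher and 21.2% lower, 44.4% in all. The lower one was CYCS, cytochrome c, at -1.16 ± 0.08 (authors' deposited table). It lies in the left part of chromosome 7, whose median was -0.90, and CASP2 lies in the right part. The initiator CASP10 was at 1.04 ± 0.18 in the authors' deposited table. Among inhibitors of apoptosis and released factors, 3 of 9 were higher and 2 lower, with BIRC3 (cIAP2, an NF-kB target) at 1.37 ± 0.10, BIRC5 (survivin, a mitotic gene) at -0.76 ± 0.08 and BIRC6 at 0.28 ± 0.08 in the authors' deposited table. In the death receptor arm 5 of 8 were higher and 0 lower, and those with the smallest p were the receptor FAS at 1.25 ± 0.10, CFLAR, the inhibitor of caspase-8 activation, at 0.90 ± 0.08 and the receptor TNFRSF10B at 0.59 ± 0.08 in the authors' deposited table. Among regulators of BCL2 proteins 7 of 13 were higher and 3 lower. FOXO1, of the FOXO family that activates BCL2L11 transcription, was at 0.66 ± 0.14, and the deubiquitinase USP9X, which stabilises MCL1, was at 0.45 ± 0.08 in the authors' deposited table. DYNLL2, the dynein light chain that holds BMF at the cytoskeleton, was at -0.59 ± 0.10 (authors' deposited table).

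**Figure D5:**
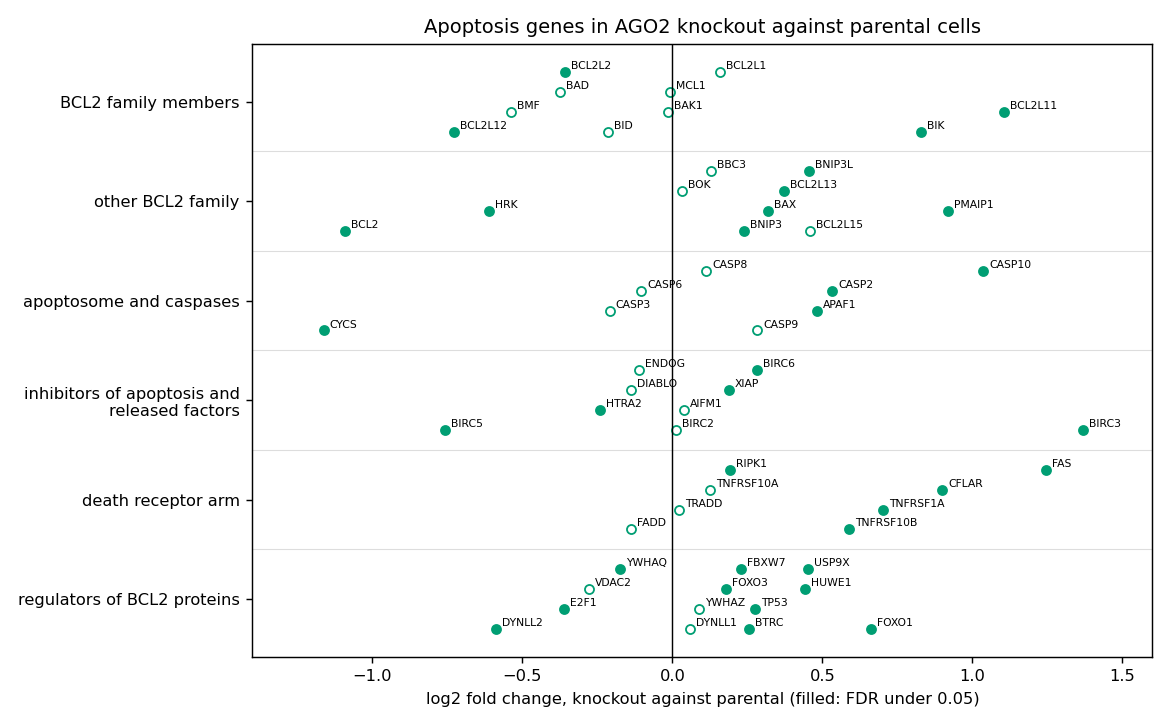
Log2 fold change of the BCL2 family genes and of 5 lists of other apoptosis genes in knockout against parental cells, each point a gene (a gene not reported here is not drawn); filled points have an FDR under 0.05. BIRC3, FAS and BCL2L11 lie at the right end and CYCS and BCL2 at the left end.

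Against the knockout, 9 of these 49 genes were called in FH-5xA and 8 in FH-WT, where 11.3% and 10.1% of all genes were called (authors' deposited tables). In FH-5xA against knockout 2 of 49 were higher and 7 lower, and in FH-WT against knockout 3 were higher and 5 lower, with medians of -0.03 and -0.02 (authors' deposited tables). BIRC3 fell by 0.99 ± 0.10 with FH-5xA and by 1.02 ± 0.10 with FH-WT in the authors' deposited tables. BNIP3L fell by 0.50 ± 0.08 with FH-5xA and by 0.59 ± 0.08 with FH-WT, FAS by 0.38 ± 0.10 and 0.31 ± 0.10, and TNFRSF10B by 0.23 ± 0.08 and 0.34 ± 0.08 (authors' deposited tables). APAF1, the scaffold of the apoptosome, was at -0.23 ± 0.08 with FH-5xA and -0.34 ± 0.09 with FH-WT, with FDRs of 0.05, just inside the threshold, and 0.00336 in the authors' deposited tables. BCL2 rose by 0.43 ± 0.14 with FH-WT (FDR 0.0301), while FH-5xA gave 0.29 ± 0.14 (FDR 0.161), in the authors' deposited tables. Other genes were also called in 1 line only (authors' deposited tables). With FH-5xA, HRK was at 0.43 ± 0.12 (FDR 0.00715), BNIP3 at 0.29 ± 0.10 (FDR 0.0479) and BTRC at -0.34 ± 0.08 (FDR 0.000389). FH-WT gave 0.17 ± 0.13, -0.09 ± 0.11 and -0.16 ± 0.08 for these. With FH-WT, DYNLL1 was at 0.30 ± 0.09 (FDR 0.0169) and BIRC5 at 0.25 ± 0.08 (FDR 0.0314). FH-5xA gave -0.06 ± 0.09 and 0.08 ± 0.08. PMAIP1 was at 0.07 ± 0.12 with FH-5xA and -0.005 ± 0.12 with FH-WT against knockout, not called in either (authors' deposited tables). Against parental cells 18 of the 49 were higher and 8 lower in FH-5xA, and 18 higher and 6 lower in FH-WT (authors' deposited tables). In the derived difference FH-5xA minus FH-WT, BNIP3 was higher at 0.37 ± 0.11 (Benjamini-Hochberg adjusted p = 0.0228) and DYNLL1 lower at -0.36 ± 0.09 (adjusted p = 0.00764), and the other 47 were not called, against 4.11% of all genes called. Neither call held with summed squared errors or with the F distribution.

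Set beside 15 textbook targets of the miR-17 family, BCL2L11 lay toward the upper end in the knockout. Of these targets 10 were higher and 2 lower in knockout against parental, with a median of 0.44, where 23.2% of all genes were called higher and 21.2% lower (authors' deposited table). CDKN1A at 2.04 ± 0.11, TP53INP1 at 1.84 ± 0.11 and BMPR2 at 1.02 ± 0.09 had the smallest p in the authors' deposited table. In FH-5xA against knockout 0 were higher and 5 lower with a median of -0.18, and in FH-WT against knockout 0 were higher and 7 lower with a median of -0.29 (authors' deposited tables). Over all genes 5.04% were called higher and 6.24% lower in FH-5xA, and 4.21% higher and 5.85% lower in FH-WT. The corresponding values of BCL2L11 were -0.20 and -0.42. In the derived difference 1 of the 15, STAT3, was called, against 4.11% of all genes, higher in FH-5xA by 0.24 ± 0.08 (adjusted p = 0.0443). Several of these genes, CDKN1A and TP53INP1 among them, are also p53 targets.

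The genes whose pattern lay nearest to that of BCL2L11 were found by Euclidean distance over the 3 log2 fold changes against parental cells, among 14766 genes of at least 1 CPM. They were ERICD at a distance of 0.04, PTGS1 at 0.07, an unnamed gene (ENSG00000260257) at 0.07, CUBN at 0.08 and H2BC20P at 0.10. ERICD had log2 fold changes of 0.91 in FH-5xA, 0.71 in FH-WT and 1.08 in knockout against parental cells in the authors' deposited tables. All 5 have a lower mean expression than BCL2L11; the highest, ENSG00000260257, is at 3.99 log2 CPM.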

How the data were processed

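Per the labels' protocols, stranded ribosomal-depleted libraries were run on a NextSeq sequencer. The submitters' processing notes name edgeR 3.8.6, featureCounts 1.4.6, TopHat2 2.0.12 and Cufflinks 2.2.1, with hg38/GRCh38. The sources used here do not give the annotation, count filter, normalization factors or strand setting. Per the file headers, each of the 5 deposited tables holds a log2 fold change, a mean log2 CPM, a p-value, its false discovery rate and the likelihood ratio score for 15074 genes; the mean is the same in all 5. No table holds counts per library, so no count test, left-out library or depth could be computed and the deposited tests were used. The deposited p-value equals the upper tail of a chi-square with 1 degree of freedom at the score (largest deviation 7.36e-15). An SE was derived as the absolute log2 fold change over the square root of the score; 95% intervals are normal.

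The difference FH-5xA minus FH-WT was taken through knockout, with its variance from least squares on the 5 squared SEs, and adjusted by Benjamini-Hochberg over 15072 genes (2 undefined). Tested on simulated counts for 15074 genes, it recovered 65% of 100 genes changed by 0.5 and 93% of 100 changed by 1 (log2), with 5 false calls among 163. The simulation assumed a depth, which is unknown for these libraries, and gave the test the true spread of each gene. Its rates may therefore be better than those on the real data. Symbols matched 14974 genes and GENCODE 29 positions 15029. Alternatives were other thresholds (0.01 and 0.1), an adjustment over genes of at least 1 CPM, centring, an F distribution with 8 degrees of freedom and, for the difference, summed squared SEs. Named genes were all members, up to 3 called genes per other list with the smallest p, and the 5 genes nearest to BCL2L11. BAX, BBC3, HRK in the knockout and values shown for a second line were added for context after their values were seen. Members and lists were chosen with earlier results of these data known. Python 3.11.15, numpy 2.4.6, scipy 1.17.1 and pandas 2.3.3 were used. Protein sequences were not used here. A gene that the rule names is not reported here.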

Additional observations from a re-analysis of the deposited data

Results flagged for a closer look

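Of 49 other apoptosis genes, 2 differed between the reconstituted lines by the test of the difference itself, a share near the 4.11% of all genes called. Both calls were lost with summed squared errors and with the F distribution. BNIP3, a mitophagy and hypoxia gene, was higher in FH-5xA than in FH-WT by 0.37 ± 0.11 on the log2 scale. DYNLL1, a dynein light chain that binds BIM, was lower in FH-5xA by 0.36, at -0.36 ± 0.09. No member of the BCL2 list passed that test.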

How the results depend on the processing

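No paired analysis was possible because the tables hold no values per library, and no library could be left out. With an F distribution with 8 residual degrees of freedom, the count of members called was 0 in place of 2 for FH-WT against knockout, and 2 in place of 4 for FH-WT against parental. The other apoptosis genes called were then 2 for each reconstituted line against knockout and 0 for their difference. At a false discovery rate under 0.01, members called were 1 for FH-WT against knockout and 2 for FH-WT against parental, and other apoptosis genes 5 for FH-5xA and 4 for FH-WT against knockout and 1 for the difference. With summed squared errors, through knockout or parental, 0 other genes were called in the difference, so BNIP3 and DYNLL1 rest on the variance chosen. That sum also counts the variance of the shared group, which cancels in the difference, so it is wider by construction and weakens calls. Centring turned the sign of values near 0: MCL1 to 0.0049 (all genes) and 0.012 (outside chromosome 7) and BAK1 to 0.0049 (outside chromosome 7) in knockout against parental. In FH-5xA against knockout BAK1 went to -0.006 by either centring and BID to -1.7e-05 (all genes) and -0.00025 (outside chromosome 7). Of 380 member values under alternatives, 362 kept their direction and side of the threshold, 7 lost a call, 4 gained one and 7 changed sign. The BCL2L11, BIK, BCL2L2 and BCL2L12 calls in knockout and FH-5xA against parental held under every alternative run. SEs limit what could be seen for BAD and BMF.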
